A study of Mus musculus with 59 samples.

Results

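Messenger RNA levels of the Wnt gene family were followed in the spinal cord of mice carrying the SOD1_G93A mutation and in co-cultures of glia and neurons of mutant or wild-type genotype. Members were found by gene name, as every entry whose aliases hold a Wnt gene, Fzd1 to Fzd10, Sfrp1 to Sfrp5, Dkk1 to Dkk4, Wif1, Lrp5, Lrp6, Axin2, Lef1, Tcf7 or an R-spondin. They came to 48 of 36814 entries in the spinal cord and to 47 of 27389 entries in the cultures, where no entry carried the name Fzd2. Both held 19 ligands, 4 R-spondins and 3 nuclear factors or targets. The receptors and co-receptors came to 13 entries in the cord and 11 in the cultures, and the antagonists to 9 and 10, the additional antagonist being Frzb, listed under the older name Sfrp3. Fzd10 had a second, overlapping entry in the cord, and reads of the pair may be shared. The family was proposed because Wnt4 differed between mutant and wild-type glia, so that contrast is given below as values without a test.

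The series profiled 59 libraries by RNA sequencing, 16 of whole spinal cord and 43 of sandwich cultures. The cord libraries came from SOD1_G93A mutant and WT mice aged 4, 8, 12 and 17 weeks, with 1 female and 1 male of each genotype and age. In the cultures, glia and neurons of either genotype were combined in all 4 pairings and sampled at days 3, 7 and 14. RNA of the glial partner gave 23 libraries and RNA of the neuronal partner gave 20, with 1 or 2 libraries for each pairing and day. Mutant neurons on WT glia had 1 library a day. The labels do not say that replicates came from separate cultures, so each p-value reflects the spread among these libraries alone, and that spread may be technical. The promoter of the transgene and the line, and how the cells were obtained, are not given in the sources used here. All tissue values are of bulk RNA, in which fewer cells of a type and less RNA per cell cannot be told apart.

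Wnt proteins are secreted lipid-modified ligands that bind Frizzled receptors together with the co-receptors Lrp5 and Lrp6. In the canonical branch, binding stabilises beta-catenin, which enters the nucleus and acts with Tcf and Lef factors on targets such as Axin2, itself a negative regulator of the pathway. Sfrp proteins and Wif1 bind the ligands outside the cell, Dkk proteins act mainly through the co-receptors, and R-spondins raise receptor levels at the cell surface. In the nervous system the family is known for patterning the spinal cord, guiding axons, building synapses and forming brain vessels.

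Reads on entries ranged from 9710126 to 49146066 a library in the cord, 3133895 to 21979164 in glia and 6374507 to 29250533 in neurons. Values are per transcript length and per library (RPKM scale) and were rescaled by 1 factor a library, which was 1.46 to 2.23 in the 7 day 3 replicate 1 cultures and 0.812 to 0.980 in the other 36. Values of the mouse Sod1 entry overlapped between the genotypes in cord, glia and neurons, and so gave no check of the labels. Glial libraries held summed astrocyte markers of 703 to 1714 beside microglia markers of 494 to 1933 and fibroblast and meninges markers of 190 to 1459. The 7 motor neuron markers summed to 2.53 to 22.3 in glial libraries and to 116 to 1769 in neuronal libraries. The replicate 2 libraries of WT glia at day 14 stood apart, with fibroblast and meninges markers of 190 and 205 against 397 or more in every other glial library.

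Which members the tissue and each partner expressed was described first. In the cord, Dkk3, a divergent member of the Dickkopf family, had the highest level, with a median rescaled value of 26.0 (range 22.3 to 29.8, n = 16). The ligands with the highest levels in the cord were Wnt7b at 4.71, Wnt7a at 3.73 and Wnt3 at 3.12, each a median over the 16 libraries. Their ranges were 3.34 to 8.05, 2.77 to 4.64 and 1.89 to 3.99, so these neighbours in the order overlapped. Among receptors Lrp6 (median 5.27), Fzd3 (5.23) and Fzd1 (4.29) came first, with ranges that overlapped. Sfrp1 (7.40) and Sfrp5 (6.60) followed Dkk3 among the antagonists, and Rspo2 (2.02), Rspo3 (1.78) and Rspo1 (1.20) were the R-spondins detected. Axin2 lay between 0.968 and 1.44 in all 16 cord libraries.

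Cord and culture values were scaled separately, so their levels are given side by side without a comparison. In glia, Wnt5a, a ligand known mainly for the branch without beta-catenin, led with a median of 20.9 (range 6.99 to 27.6, n = 23), ahead of Wnt7a at 11.4 and Wnt9a at 10.1. In neuronal libraries Wnt4 led with a median of 17.5 (range 6.0 to 39.4, n = 20), ahead of Wnt5a at 14.3 and Wnt7a at 11.9. That order is over all days, and at day 14 Wnt5a lay above Wnt4, as given below. Fzd3, a receptor needed for axon tracts, had median levels of 21.8 in glia and 18.9 in neurons. The next receptors by median were Fzd7 (19.0), Lrp6 (17.9) and Lrp5 (17.2) in glia, and Lrp6 (12.0), Fzd1 (9.25) and Fzd7 (9.21) in neurons. Dkk3 and Sfrp1 were the leading antagonists in both, at medians of 57.7 and 44.4 in glia and 16.9 and 17.3 in neurons. The third antagonists were Sfrp4 in glia (4.27) and Sfrp2 in neurons (2.08), both secreted Frizzled-related proteins. Rspo3 had medians of 1.33 in glia and 2.89 in neurons and Rspo2 of 1.71 and 0.384. Tcf7, a nuclear partner of beta-catenin, had medians of 4.92 in glia and 5.18 in neurons.

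Levels were high enough for testing, at 1 or more in at least 2 libraries, for 25 of the 48 entries in the cord, 32 of 47 in glia and 34 of 47 in neurons. By role these were 6, 10 and 11 of the 19 ligands and 11 receptor entries in each set. The antagonists tested were 4, 7 and 7, the R-spondins 3, 2 and 3, and the nuclear factors or targets 1, 2 and 2. No member lacked reads altogether in any of the 3 sets, but 5 entries in the cord, 9 in glia and 6 in neurons had at most 10 reads in every library. Lef1, another nuclear partner of beta-catenin, did not exceed 0.323 in the cord, 0.413 in glia or 0.316 in neurons. Wnt1 and Wnt3a, ligands of the dorsal neural tube, Wnt8a and Wnt10b stayed below 1 in every library. The plot of medians and ranges shows all members.

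**Figure D1:**
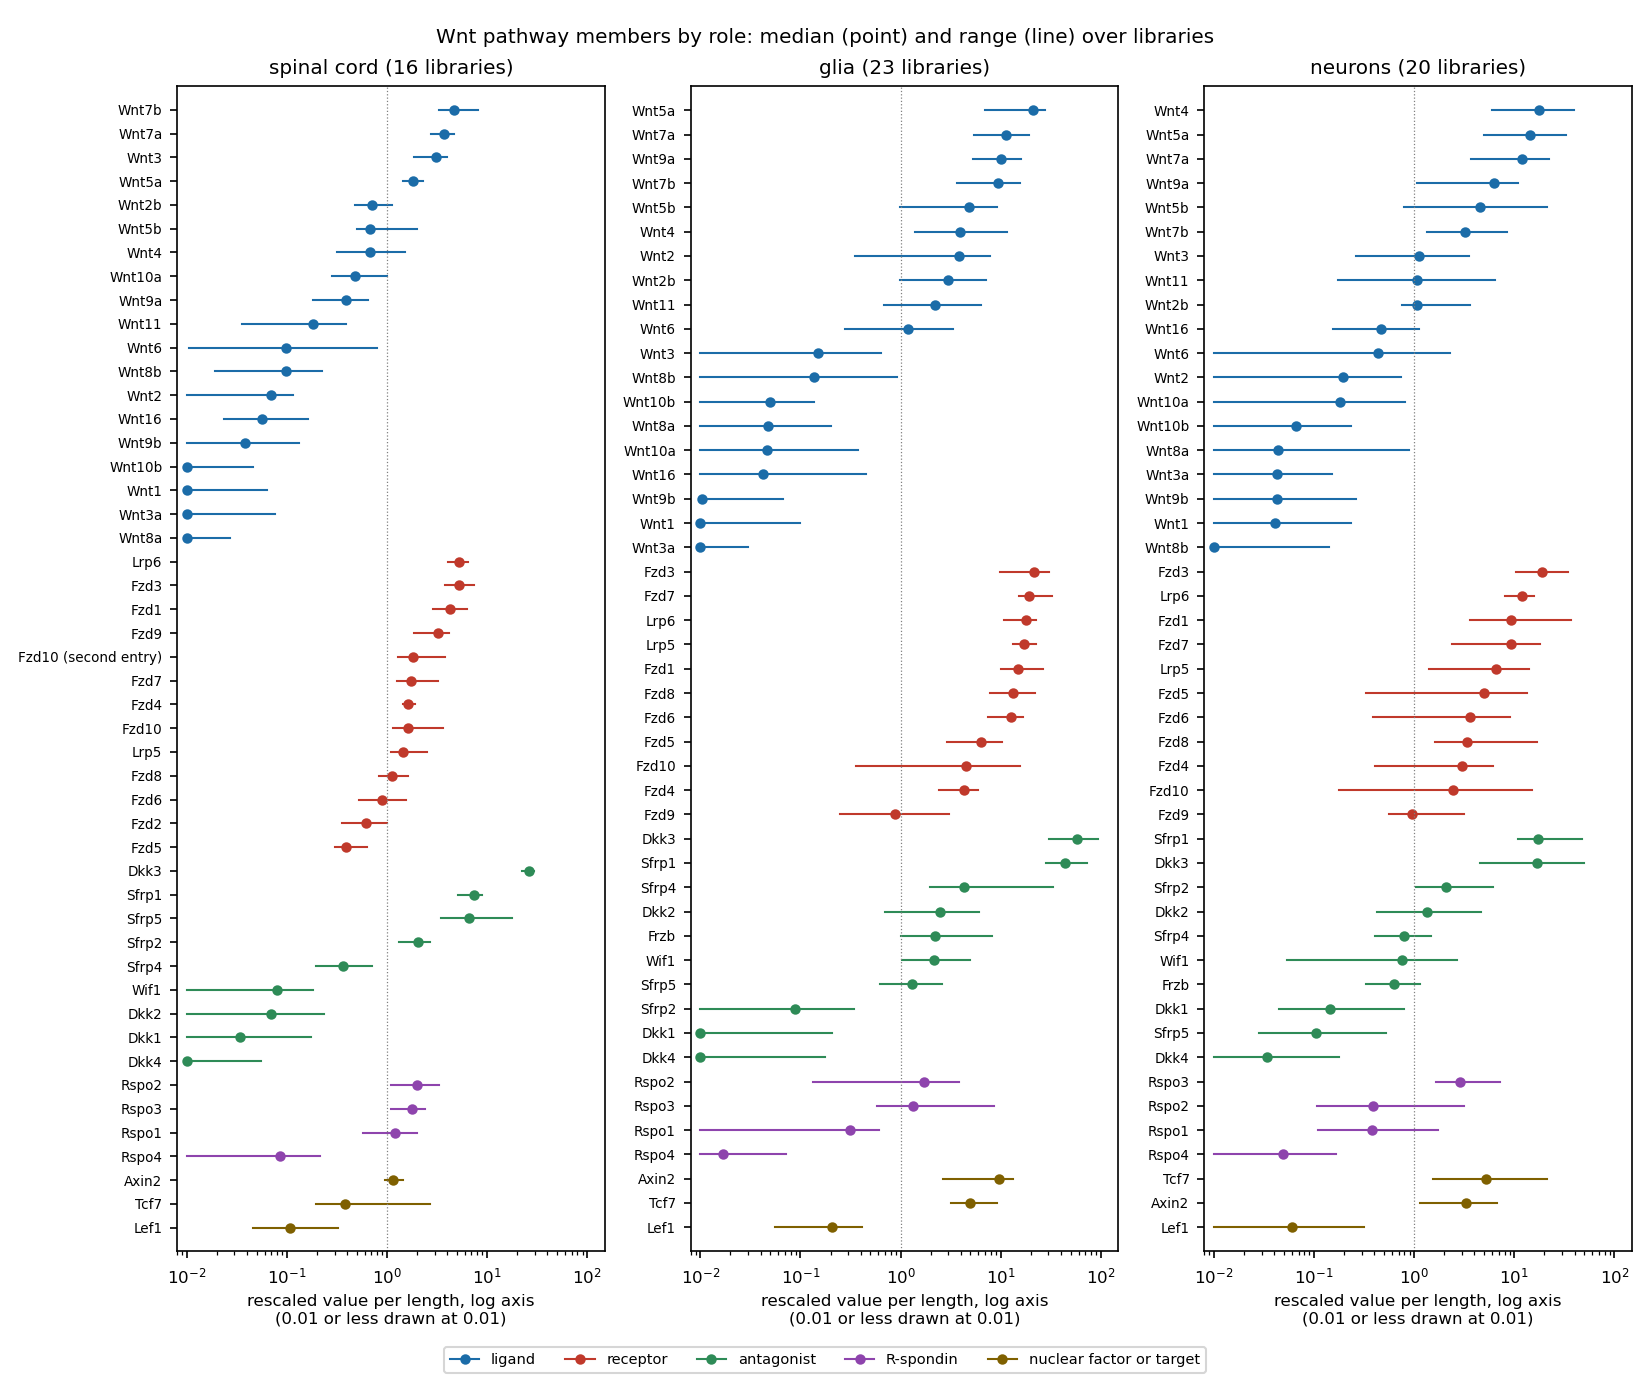
Median (point) and range (line) of the rescaled value per length on a log axis for each member in 16 spinal cord, 23 glial and 20 neuronal libraries, ordered by median within each role; values of 0.01 or less are drawn at 0.01 and the dotted line marks 1. Over all libraries of a set, Dkk3 leads in the cord at 26.0, Wnt5a leads the glial ligands at 20.9, and Wnt4 leads the neuronal ligands at 17.5, though not at day 14.

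Whether the family differed between mutant and WT spinal cord was tested at each age with limma on log2(rescaled value + 1), a scale that understates changes of low genes. A member is said to have changed where the Benjamini-Hochberg adjusted p over all entries was below 0.05. At 17 weeks 6 of 25 members (24.0%) passed, against a background of 11.7% of the 14645 entries tested. Wnt7b, Wnt5b, Sfrp5, Lrp5 and Fzd7 were higher in mutant cord and Sfrp1 was lower. The median log2 difference of the 25 members was 0.19, against −0.02 over all entries, and 16 of the 25 lay above 0.

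Wnt7b, a ligand of the canonical branch known for brain vessel growth (mm9 chromosome 15, 85365869 to 85412252, minus strand), had 17-week values of 7.42 and 8.05 in the mutant female and male. The WT female and male had 4.87 and 3.34. Both mutant values lay above both WT values and above every younger library, the highest of which was 5.97. The log2 difference was 0.79 (SE 0.14, limma adjusted p = 0.00348), and it remained past the threshold in 10 of 10 other settings. At 12 weeks the mutant libraries had 5.35 and 5.97 and the WT libraries 3.92 and 3.98, a difference that did not pass. Averaged over the 4 ages the Wnt7b difference was 0.34 (SE 0.07, limma adjusted p = 0.0113).

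Wnt5b, a close relative of Wnt5a, was lower in level, at 1.75 and 1.98 in the 17-week mutants and 0.809 and 0.665 in the WT libraries. Its log2 difference of 0.72 (SE 0.13, limma adjusted p = 0.0039) did not pass with the values as deposited (adjusted p = 0.0598). Wnt5b entered the test only through mutant libraries, with deposited values of 1.05 and 1.14 at 12 weeks and 1.14 and 1.86 at 17 weeks. No WT library exceeded 0.993, so its direction was not independent of the filter. Without the filter Wnt5b passed at 17 weeks as well. At 4 weeks the mutant female and male had 0.502 and 0.662, against 0.576 and 0.836 in WT, with overlapping groups. The mutant effect at 17 weeks minus that at 4 weeks was 0.83 (SE 0.18, limma adjusted p = 0.0233), and it was the 1 of 25 members past the threshold, against 5.03% of entries. This call was lost when any 1 of 6 of the 8 libraries was left out, the adjusted p then being 0.0537 without the 4-week mutant male, 0.0551 and 0.083 without the 17-week mutant female and male, 0.0741 without the 17-week WT male, and 0.107 and 0.118 without the 4-week mutant female and WT male.

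The antagonists moved in opposite directions at 17 weeks. Sfrp5 (chromosome 19, 42272461 to 42276743, minus strand) stood at 17.6 and 17.9 in the mutant female and male and at 6.31 and 6.65 in WT. At 4, 8 and 12 weeks its 12 values ran from 3.43 to 9.82 with the genotypes interleaved, so the 17-week mutants were above every other cord library. The log2 difference was 1.32 (SE 0.24, limma adjusted p = 0.00456), and it was lost (adjusted p = 0.0781) when both 17-week females, whose rescaling factors were 0.651 and 0.726, were left out. Sfrp1 stood at 5.12 and 5.84 in mutants and at 7.64 and 7.68 in WT, a log2 difference of −0.42 (SE 0.09, limma adjusted p = 0.013). It did not pass without the mutant female (adjusted p = 0.111) or without the WT female (0.0581). Dkk3 and Sfrp2, the other antagonists tested, did not pass.

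The 2 receptors that passed rested on single libraries. Lrp5, a co-receptor, had 2.53 and 2.41 in the mutant female and male and 1.48 and 1.10 in WT, a log2 difference of 0.61 (SE 0.15, limma adjusted p = 0.0225). Without the mutant female, the mutant male or the WT male the adjusted p was 0.093, 0.11 and 0.115. Fzd7, a receptor for several Wnts, had 2.80 and 2.86 against 1.78 and 1.34, a log2 difference of 0.59 (SE 0.17, limma adjusted p = 0.0448). Leaving out any 1 of the 4 libraries ended that call, with adjusted p of 0.141 and 0.177 without the mutant female and male and of 0.0589 and 0.196 without the WT female and male. Fzd1, at 6.34 and 4.87 against 3.51 and 4.13, did not pass at 17 weeks (log2 difference 0.45, adjusted p = 0.0653). Wnt4 did not pass either, with a log2 difference of −0.34 (SE 0.20, adjusted p = 0.322), nor did Axin2, the target gene, at −0.11 (adjusted p = 0.643).

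Marker genes of other cells moved with the 17-week differences. Microglia markers summed to 462 and 495 in mutant cord and to 83.3 and 89.2 in WT, and 7 of 8 were higher. Astrocyte markers summed to 3008 and 3177 against 1610 and 1706, with 5 of 9 higher, and neuron markers to 1194 and 1227 against 1764 and 1799, with 4 of 9 lower. Motor neuron markers summed to 35.3 and 37.0 against 45.4 and 51.0, oligodendrocyte markers to 3042 and 3196 against 3686 and 3856, and pericyte and smooth muscle markers to 25.8 and 28.6 against 13.8 and 21.2. Sums of proliferation and red blood cell markers did not overlap between the genotypes either, the first being higher and the second lower in mutants. All 8 microglia and all 9 astrocyte and 9 neuron markers had a median of 1 or more. Their part in the differences of the Wnt family was not tested.

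**Figure D2:**
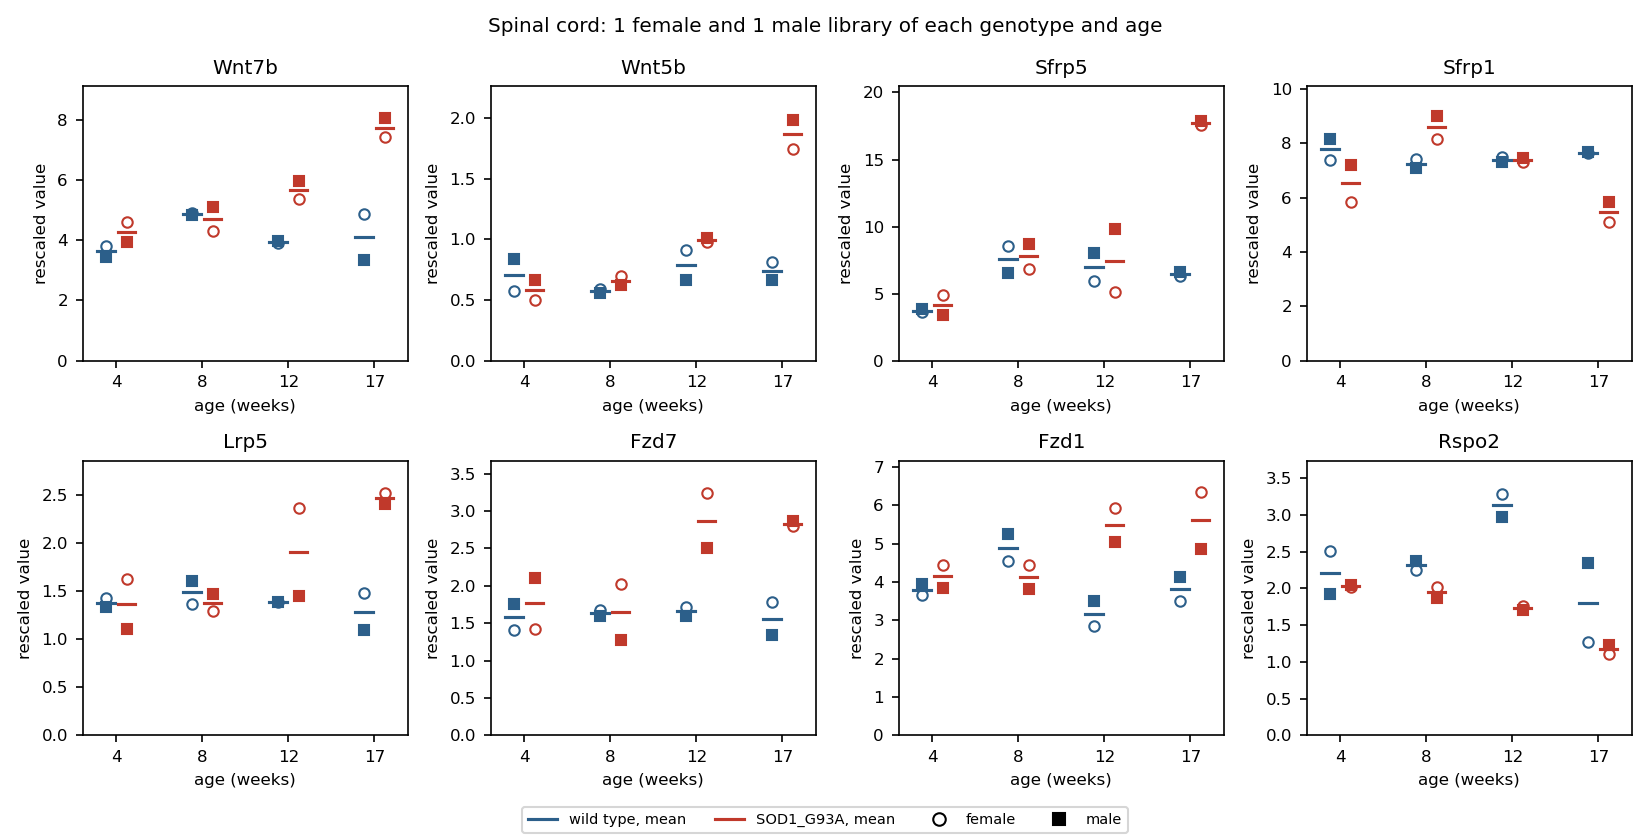
Rescaled value against age in weeks for 8 members in spinal cord, with open circles for females, filled squares for males and bars for the mean of each genotype. The 17-week mutant libraries lie above every other library for Wnt7b and Sfrp5, at 7.42 and 8.05 and at 17.6 and 17.9, and have the Sfrp1 values 5.12 and 5.84.

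At earlier ages few members differed. At 12 weeks 1 of 25 passed, against 3.08% of all entries. It was Fzd1, with 5.94 and 5.04 in the mutant female and male and 2.86 and 3.49 in WT, a log2 difference of 0.64 (SE 0.14, limma adjusted p = 0.0364). The call was lost without the mutant female (adjusted p = 0.268), the WT female (0.324) or the WT male (0.0805). At 12 weeks microglia markers summed to 197 and 253 in mutants and to 92.8 and 94.1 in WT, with 6 of 8 higher, and astrocyte markers to 2326 and 2408 against 1503 and 1639, with 4 of 9 higher. Neuron, motor neuron, endothelial and proliferation sums did not overlap either, and the part of these markers in the Fzd1 value was not tested. Rspo2, a secreted enhancer of Wnt signalling, had 12-week values of 1.76 and 1.70 in mutants and 3.29 and 2.97 in WT, without overlap, but did not pass (log2 difference −0.59, adjusted p = 0.0844). Averaged over ages it passed at −0.30 (SE 0.08, limma adjusted p = 0.0453), as 1 of 2 members beside Wnt7b against 8.28% of entries, and kept the call in 6 of 22 other settings. Leaving out any 1 of 13 of the 16 libraries ended it, with adjusted p of 0.0667 to 0.118.

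At 4 weeks 0 of 25 members and 0% of entries passed with limma, 1 member and 705 entries having an unadjusted p below 0.05. At 8 weeks 0 of 25 passed against 0.0888% of entries, with 3 members and 2224 entries below 0.05 unadjusted. WT cord at 17 against 4 weeks gave 0 of 25 members against 2.87% of entries, with 1 member and 2555 entries below 0.05 unadjusted and a lowest adjusted p among members of 0.194. The limma-voom test on recovered reads also called 0 members in these 3 comparisons.

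Other genes of the pathway were read from 67 genes outside the family. At 17 weeks 54 were tested, of which 7 were higher and 2 lower in mutant cord, with a median log2 difference of −0.04. The 9 that passed were 16.7% of the list, against 11.7% of all entries. Ccnd1, the cell cycle gene for cyclin D1 and a known target, was higher by 1.28 (SE 0.16, limma adjusted p = 0.000453). Tcf7l1, a nuclear partner of beta-catenin, differed by 0.72 and Apcdd1, a membrane inhibitor, by 0.69, both higher. Lgr6, an R-spondin receptor, was lower, at −0.69 (SE 0.13, limma adjusted p = 0.00663). None of the 17 cytoplasmic genes tested passed with limma.

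Upstream sequence is shown for 4 members that passed a test in mutant against WT cord, Fzd1 at 12 weeks and Fzd7, Wnt5b and Sfrp5 at 17 weeks, so that their letters can be read beside each other. None of the windows shown overlaps an exon of GENCODE M21. Wnt5b has 3 RefSeq starts, and all 3 windows are given. The windows are the 250 bases before a RefSeq transcript start (GRCm38.p6), written 5′ to 3′ on the gene's strand. Capitals mark CTTTGA or CTTTGT, the core letters bound by Tcf and Lef factors, or their reverse complements TCAAAG and ACAAAG.
Fzd1: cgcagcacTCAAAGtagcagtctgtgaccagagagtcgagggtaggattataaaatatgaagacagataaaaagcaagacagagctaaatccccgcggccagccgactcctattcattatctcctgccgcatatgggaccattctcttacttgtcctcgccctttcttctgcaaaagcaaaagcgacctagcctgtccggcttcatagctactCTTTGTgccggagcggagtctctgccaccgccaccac
Fzd7: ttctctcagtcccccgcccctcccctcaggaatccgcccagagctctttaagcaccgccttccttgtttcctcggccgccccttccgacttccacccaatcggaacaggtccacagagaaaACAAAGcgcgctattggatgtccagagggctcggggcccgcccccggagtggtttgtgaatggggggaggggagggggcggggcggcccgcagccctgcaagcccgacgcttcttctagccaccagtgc
Wnt5b window a: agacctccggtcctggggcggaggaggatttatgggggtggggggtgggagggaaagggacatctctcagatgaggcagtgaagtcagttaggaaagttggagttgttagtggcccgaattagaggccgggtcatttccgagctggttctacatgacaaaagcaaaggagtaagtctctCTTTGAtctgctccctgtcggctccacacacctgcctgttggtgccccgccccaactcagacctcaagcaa
Wnt5b window b: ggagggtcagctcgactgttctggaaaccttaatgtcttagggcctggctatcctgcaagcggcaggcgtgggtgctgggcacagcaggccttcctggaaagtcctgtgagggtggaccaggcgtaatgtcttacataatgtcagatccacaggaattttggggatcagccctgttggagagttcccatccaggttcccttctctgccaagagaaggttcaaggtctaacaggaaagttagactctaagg
Wnt5b window c: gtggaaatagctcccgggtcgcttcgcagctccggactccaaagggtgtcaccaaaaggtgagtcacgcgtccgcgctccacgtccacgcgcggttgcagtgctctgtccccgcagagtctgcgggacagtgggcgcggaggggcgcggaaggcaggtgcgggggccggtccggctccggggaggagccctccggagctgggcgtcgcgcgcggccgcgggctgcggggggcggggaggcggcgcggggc
Sfrp5: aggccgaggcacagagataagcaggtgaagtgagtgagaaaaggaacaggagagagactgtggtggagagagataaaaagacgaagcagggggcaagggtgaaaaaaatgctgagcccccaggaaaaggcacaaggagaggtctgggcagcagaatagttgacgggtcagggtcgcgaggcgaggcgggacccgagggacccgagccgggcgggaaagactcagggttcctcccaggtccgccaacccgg
Fzd1 (chr5:4758217-4758466, minus strand) held 2 matches, starting 242 and 37 bases before the start. Fzd7 (chr1:59481897-59482146, plus strand) held 1 match at 129 bases before it, and Wnt5b window a (chr6:119449387-119449636, minus strand) held 1 at 71. Wnt5b windows b (chr6:119467212-119467461) and c (chr6:119544348-119544597) held none. The Sfrp5 window (chr19:42202253-42202502, minus strand) held none, although Sfrp5 had the largest log2 difference of the members tested at 17 weeks. Either motif was present in 9 of 39 windows of the 32 members matched by symbol (23.1%) and in 27.6% of all 32851 windows. CTTTGA alone was in 15.4% of the members' windows and 13.8% of all, and CTTTGT in 15.4% and 16.5%. A match is a run of letters and is not evidence of binding. Wnt7b, Lrp5 and Sfrp1 are named only.

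In glia, the family was described across genotype first, since Wnt4 in this contrast chose it. Wnt4 (mm9 chromosome 4, 136833404 to 136855642, plus strand), a ligand known for kidney and reproductive tract development and for axon guidance, had low levels in mutant glia at day 7. With mutant neurons the 2 mutant libraries had 1.65 and 2.42 and the WT libraries 6.21 and 11.7. With WT neurons the mutant libraries had 1.39 and 2.16 and the WT libraries 10.9 and 11.5. No mutant value reached any WT value at day 7, whatever the partner.

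The Wnt4 values at the other days were closer. At day 3 mutant glia had 4.43, 3.47, 5.26 and 4.42, and WT glia 5.81, 8.70 and 6.38, again without overlap. At day 14 mutant glia had 3.04, 3.34, 2.34 and 2.47 and WT glia 4.49, 2.88, 3.96 and 2.96, and the groups overlapped. Averaged over both partners the log2 difference, mutant minus WT, was −0.50 (SE 0.21) at day 3, −1.91 (SE 0.19) at day 7 and −0.26 (SE 0.19) at day 14. Over the 3 days it was −1.02 (SE 0.15) beside WT neurons and −0.76 (SE 0.17) beside mutant neurons.

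Fzd10 (chromosome 5, 129106719 to 129109969, plus strand), a Frizzled receptor, changed sides between days. At day 3 mutant glia had 12.8, 8.52, 11.1 and 7.85 and WT glia 7.30, 3.36 and 5.75, so mutant values were higher. At day 7 mutant glia had 2.74, 1.75, 2.31 and 1.77 and WT glia 12.2, 10.2, 15.6 and 9.09. At day 14 mutant glia had 0.859, 0.736, 1.25 and 0.357 and WT glia 5.36, 2.45, 4.53 and 2.30. The groups did not overlap at any of the 3 days. The log2 differences were 0.70 (SE 0.29), −2.01 (SE 0.26) and −1.34 (SE 0.26) at days 3, 7 and 14, and the differences between days were not tested.

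Wnt7a and Wnt7b, close relatives of each other, lay the other way at day 7. Wnt7a stood at 11.1 to 14.0 in mutant and 5.39 to 6.78 in WT glia, a log2 difference of 0.81 (SE 0.25). Wnt7b stood at 13.4 to 15.6 against 7.19 to 9.48 at day 7 (0.76, SE 0.20), but at 3.64 to 8.16 against 10.1 to 12.1 at day 14 (−0.90, SE 0.20). Axin2 had day 14 values of 4.57, 4.12, 6.17 and 2.68 in mutant and 9.88, 6.39, 9.77 and 4.94 in WT glia, with overlap when replicates are pooled. Replicate 1 had 4.57 and 6.17 in mutant against 9.88 and 9.77 in WT glia. Replicate 2 had 4.12 and 2.68 against 6.39 and 4.94. The genotypes were apart within each replicate number, a split made after the values were seen. The log2 difference of Axin2 was 0.00 at day 3, −0.44 (SE 0.23) at day 7 and −0.69 (SE 0.23) at day 14. Over the 3 days the median log2 difference of the 32 members was −0.10 beside WT neurons and −0.07 beside mutant neurons, against 0.00 over all entries in both. These 2 contrasts use separate glial libraries but are not independent. Same-numbered libraries of 1 glial genotype deviated together across partners, with correlations at day 7 of 0.82 in mutant and 0.77 in WT glia. At day 14 the correlations were 0.89 and 0.85.

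Markers of other cells moved with the genotype at day 7. Endothelial markers summed to 18.1 to 22.9 in mutant glia and 45.2 to 47.7 in WT glia, and fibroblast and meninges markers to 397 to 476 against 572 to 748. Astrocyte markers summed to 1227 to 1393 in mutant against 1077 to 1167 in WT glia, and oligodendrocyte markers to 127 to 170 against 83.4 to 109. These 4 of the 13 marker lists did not overlap between the genotypes at day 7. All 7 fibroblast and meninges markers had a median of 1 or more in both genotypes, but only 4 of 7 endothelial markers in mutant and 3 of 7 in WT glia. Their part in the Wnt4 and Fzd10 values was not tested. Without the WT glia libraries of day 14 that stood apart, the Wnt4 differences were −1.08 (SE 0.16) and −0.84 (SE 0.17) beside WT and mutant neurons.

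The entries whose glial pattern was most like that of Wnt4 across the 23 libraries were Pbp2, Ptgs1, Slc43a1, Trp53i11 and Ramp2, with Pearson correlations of 0.89, 0.88, 0.87, 0.87 and 0.86. Of the members Fzd10 came first at 0.70, rank 130 of 14610 entries, followed by Lrp6 at 0.67 and Axin2 at 0.61, and Wnt7a was lowest at −0.52. Across the 20 neuronal libraries the most like were Evi5l at 0.98 and Jag2, Tubb4a, Tubb3 and Podxl2 at 0.97. There the members Wnt3 (0.89) and Sfrp2 (0.80) came first and Fzd5 and Fzd6 (−0.90 each) last. These are descriptions over libraries that share days, replicates and depth.

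**Figure D3:**
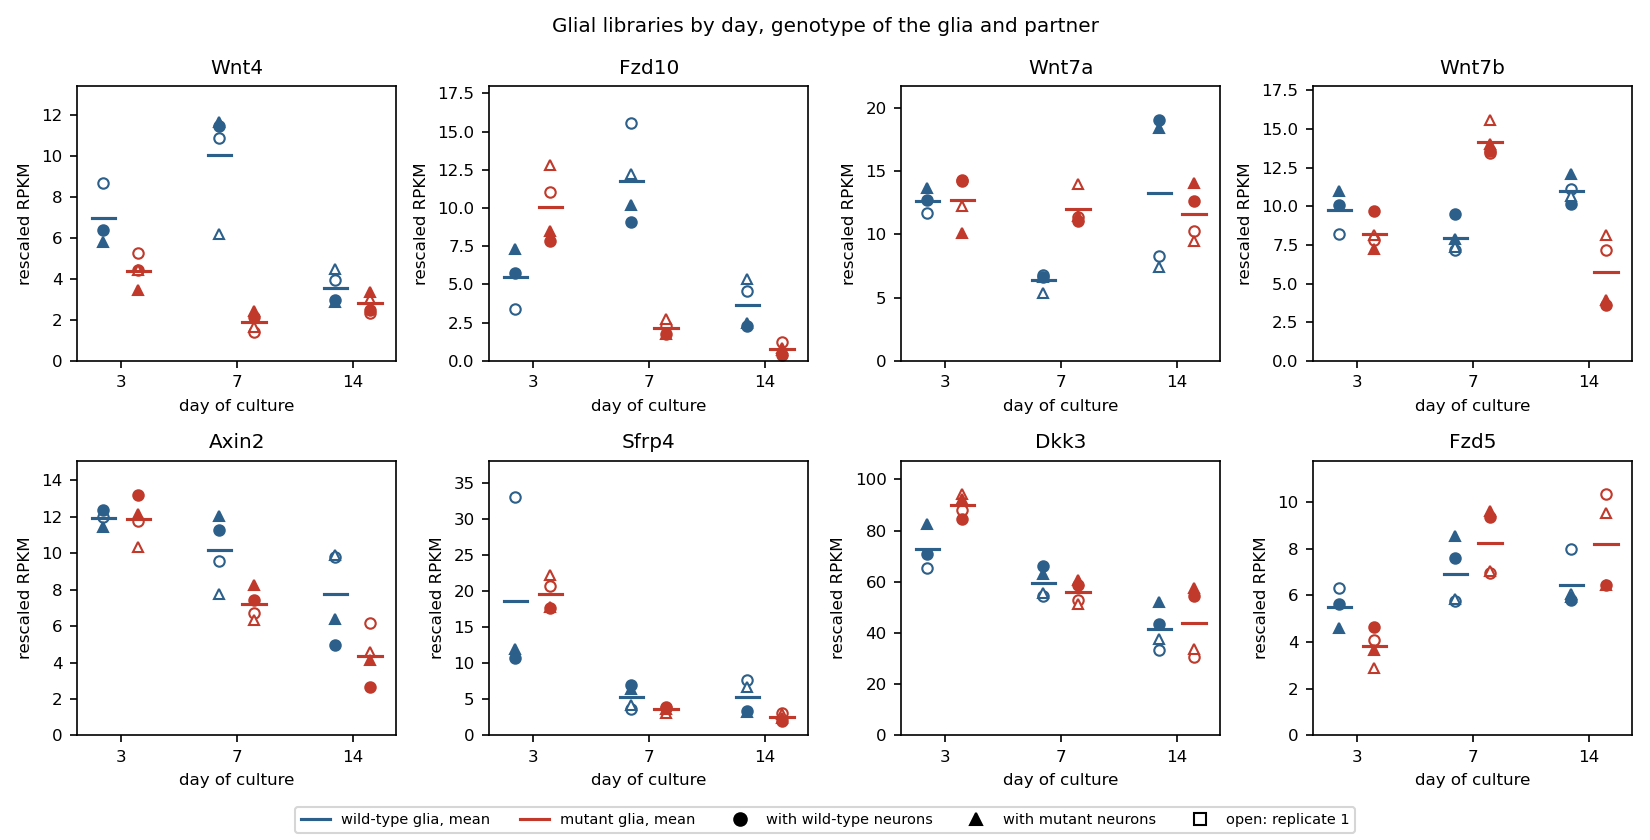
Rescaled RPKM against day of culture for 8 members in 23 glial libraries, coloured by genotype of the glia, with circles for WT and triangles for mutant neurons as partner, open symbols for replicate 1 and bars for means. At day 7 mutant glia have Wnt4 at 1.39 to 2.42 against 6.21 to 11.7 in WT glia, and Wnt7a at 11.1 to 14.0 against 5.39 to 6.78.

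The time in culture was compared within glia at day 14 against day 3, averaged over pairings. Of the 32 members 10 passed (31.2%), against 12.0% of the 14611 entries, 9 of them lower at day 14 and 1 higher. The median log2 difference of the members was −0.24, against −0.01 over all entries. Sfrp4 had the largest fall. Its 7 day 3 libraries ran from 10.7 through a median of 17.9 to 33.1, and its 8 day 14 libraries from 1.96 through 3.18 to 7.75. The days did not overlap, and the log2 difference was −1.98 (SE 0.24, limma adjusted p = 0.00015).

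The other antagonists that fell were Dkk3 (log2 difference −0.96, SE 0.15) and Dkk2, which acts on the co-receptors (−0.91, SE 0.16). Among receptors Fzd10 (−1.60, SE 0.20), Fzd9 (−0.67, SE 0.13) and Fzd7 (−0.48, SE 0.11) fell, while Fzd5 rose by 0.58 (SE 0.14, limma adjusted p = 0.0138). The rise of Fzd5 was 0.26 (adjusted p = 0.387) with the values as deposited, whose median over all entries lay at −0.33. Axin2 fell by 0.94 (SE 0.17, limma adjusted p = 0.0024). Of the ligands Wnt4 (−0.63, SE 0.14, limma adjusted p = 0.00984) and Wnt9a (−0.60, SE 0.16, limma adjusted p = 0.0218) fell. No R-spondin passed with limma.

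Some of these calls rested on a few libraries. Without the day 3 replicate 1 libraries 6 members passed, and Fzd5, Fzd7, Wnt4 and Wnt9a did not (adjusted p of 0.106, 0.107, 0.117 and 0.164). Without the WT glia libraries of day 14 that stood apart, Wnt4 (adjusted p = 0.0521) and Wnt9a (0.0753) did not pass. Wnt9a also missed without mutant glia on mutant neurons replicate 2 of day 14 (0.0505) or replicate 1 of day 3 (0.0532). It missed as well without mutant glia on WT neurons replicate 1 of day 3 (0.0527) or WT glia on WT neurons replicate 2 of day 14 (0.0523). With replicate numbers as a block 11 members passed, Wnt5a being added, and 3695 entries passed in place of 1755. Over the same days 5 of 8 microglia markers and 6 of 7 oligodendrocyte markers fell. Fibroblast and meninges markers summed to 1110 to 1459 at day 3 and 190 to 1011 at day 14, with 2 of 7 lower, and endothelial markers to 47.8 to 65.3 and then 7.96 to 42.8, with 2 of 5 tested lower. Both sums were without overlap between the days, and the part of these markers was not tested.

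Whether glia responded to the genotype of their neuronal partner was tested within each glial genotype. In mutant glia 0 of 32 members and 0% of entries passed with limma, and 0 members and 26 entries had an unadjusted p below 0.05. In WT glia 0 of 32 members and 0% of entries passed with limma, with 0 members and 39 entries below 0.05 unadjusted. The limma-voom test on recovered reads called 0 members and 0 entries in both. The members' log2 differences ran from −0.25 to 0.14 in mutant glia and from −0.26 to 0.25 in WT glia, with SEs of 0.11 to 0.48. Same-numbered replicates deviated together, and the main fit left this in its spread. These tests could therefore miss a response, and a lack of calls does not show that there was none. With the replicate block 0 members and 0 entries passed in both. The 2 comparisons have no libraries in common, but same-numbered glial replicates deviated together, so they are not independent.

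Neuronal libraries changed most over time. At day 14 against day 3, averaged over pairings, 26 of 34 members passed (76.5%), against 63.0% of the 15065 entries, 20 of them higher and 6 lower. The members' median log2 difference was 0.70, against −0.05 over all entries. By role 9 of 11 receptors rose and 1 fell, 6 of 11 ligands rose and 2 fell, and 3 of 7 antagonists rose and 2 fell. Of 3 R-spondins 1 fell, and both nuclear factors or targets tested rose.

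The members that fell were led by Wnt4 and Wnt3. Wnt4 ran from 26.2 through a median of 35.4 to 39.4 in the 6 day 3 libraries, 10.8 through 21.5 to 32.6 in the 7 day 7 libraries and 6.0 through 7.37 to 11.4 in the 7 day 14 libraries. Days 3 and 14 did not overlap, and the log2 difference was −2.00 (SE 0.29, limma adjusted p = 9.62e-05). Wnt3 (chromosome 11, 103635464 to 103679272, plus strand), a canonical ligand of limb and axis formation, ran from 1.85 through 3.02 to 3.57 at day 3 and from 0.260 through 0.342 to 0.485 at day 14. Its log2 difference was −1.52 (SE 0.14, limma adjusted p = 4.3e-06). Rspo2 (−1.21, SE 0.12), Sfrp2 (−1.09, SE 0.17), Fzd9 (−0.57, SE 0.13) and Sfrp4 (−0.32, SE 0.12, limma adjusted p = 0.0312) fell as well. Sfrp4 missed the threshold when any 1 of 6 libraries was left out (adjusted p of 0.0525 to 0.0638), and Fzd9 missed it without the day 3 replicate 1 libraries (0.173).

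Of 11 receptors 9 rose, while Fzd9 fell and Fzd3 did not pass. Fzd5 ran from 0.330 through 1.32 to 2.09 at day 3, from 1.95 through 4.64 to 6.90 at day 7 and from 7.00 through 10.8 to 13.3 at day 14, a log2 difference of 2.42 (SE 0.28, limma adjusted p = 2.08e-05). Fzd6 ran from 0.387 through 1.04 to 1.54 at day 3 and from 7.46 through 8.06 to 9.09 at day 14, a difference of 2.18 (SE 0.15, limma adjusted p = 6.58e-07). For both receptors every day 14 library lay above every day 3 library. Fzd10 rose by 1.88 (SE 0.35), Fzd8 by 1.69, the co-receptor Lrp5 by 1.52, Fzd4 by 1.38, Fzd1 by 1.35 and Fzd7 by 1.14. Lrp6 rose by 0.37 (SE 0.11, limma adjusted p = 0.0101), but stood at −0.06 (adjusted p = 0.812) with the values as deposited, whose median over all entries was −0.43. Fzd3 did not pass, at 0.28.

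Among ligands that rose, Wnt5b ran from 0.794 through 1.90 to 4.58 at day 3 and from 7.52 through 17.6 to 21.1 at day 14 (log2 difference 2.34, SE 0.36, limma adjusted p = 0.000161). Wnt5a ran from 4.96 through 5.49 to 9.57 and from 15.9 through 28.2 to 32.5 on the same days (1.67, SE 0.22, limma adjusted p = 4.7e-05). Neither ligand overlapped between the days. Wnt9a rose by 1.70, Wnt11, a ligand of the polarity branch, by 0.94, Wnt6 by 0.70 and Wnt2b by 0.58. Wnt6 had 0 to 13 reads in the day 3 libraries and 8 to 60 in the day 14 libraries. It met the filter mainly through day 14 libraries, so its direction was not independent of the filter. Without the filter Wnt6 passed as well. Wnt2b missed the threshold without either the day 14 (adjusted p = 0.0552) or the day 3 (0.0554) library of mutant neurons on WT glia. Wnt7a (0.58, SE 0.37) and Wnt7b (0.21) did not pass.

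Of 7 antagonists 3 rose, Dkk3, Sfrp1 and Wif1, and both nuclear factors or targets tested rose. Dkk3 ran from 4.50 through 11.1 to 14.2 at day 3 and from 21.6 through 31.2 to 49.9 at day 14 (log2 difference 1.63, SE 0.26). Sfrp1 ran from 10.8 through 14.4 to 16.6 and from 32.9 through 38.5 to 47.6 (1.48, SE 0.12), and Wif1, a ligand-binding inhibitor, rose by 0.93. Tcf7 rose by 1.45 (SE 0.31, limma adjusted p = 0.0017). Axin2 rose by 0.70 (SE 0.16, limma adjusted p = 0.00247), from a day 3 median of 2.77 through 1.97 at day 7 to 5.97 at day 14. With the values as deposited 21 members passed, and Axin2, Fzd7, Lrp6, Wnt11 and Wnt2b did not.

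Marker sums of several cell types moved over the same days in these libraries. Neuron markers summed to 4041 to 7980 at day 3 and 639 to 1285 at day 14, and 9 of 9 fell. Motor neuron markers summed to 1122 to 1769 and then 116 to 275, with 7 of 7 lower. Pericyte and smooth muscle markers summed to 26.9 to 525 and then 1459 to 2441, with 4 of 4 tested higher, and astrocyte markers to 86.4 to 224 and then 424 to 725, with 7 of 9 higher. Pluripotency markers summed to 7.55 to 170 at day 3 and 0.553 to 6.65 at day 14. Sums of Schwann cell, endothelial, ependymal, and fibroblast and meninges markers were also higher at day 14 without overlap. Their part in the changes of the Wnt family was not tested.

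**Figure D4:**
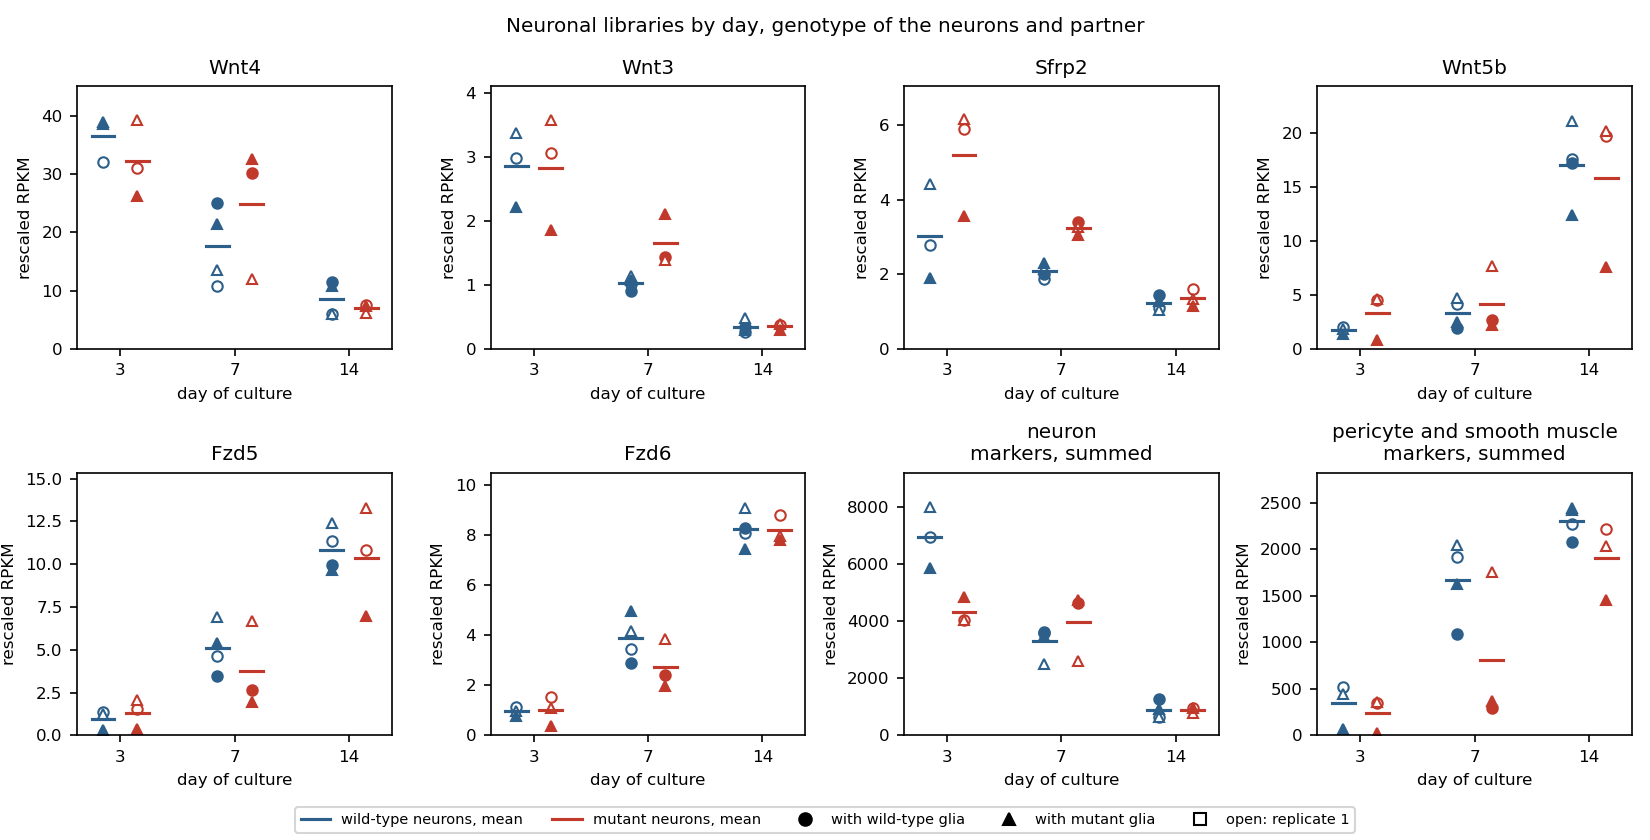
Rescaled RPKM against day of culture for 6 members and 2 marker sums in 20 neuronal libraries, coloured by genotype of the neurons, with circles for WT and triangles for mutant glia as partner, open symbols for replicate 1 and bars for means. Wnt4 drops from a median of 35.4 at day 3 to 7.37 at day 14 while Fzd5 goes from 1.32 to 10.8, and the neuron markers drop as the pericyte and smooth muscle markers climb.

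Mutant and WT neurons were compared on each kind of glia. On mutant glia 0 of 34 members passed with limma, against 0.126% of entries, with 2 members and 1480 entries below 0.05 unadjusted and a lowest adjusted p among members of 0.365. On WT glia 0 of 34 passed with limma, against 0.0266% of entries, with 1 member and 1064 entries below 0.05 unadjusted. The limma-voom test on recovered reads called 0 members in both. Wnt4 differed by −0.10 (SE 0.28) and 0.22 (SE 0.37) on the log2 scale. Wnt7b differed by 0.62 (SE 0.33, limma adjusted p = 0.625) on mutant glia and by 0.77 (SE 0.43, limma adjusted p = 0.841) on WT glia.

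The Wnt7b values of replicate 1 and replicate 2 libraries differed in pattern. In replicate 1, mutant neurons had 8.07 and 7.19 at day 3, 8.53 at day 7 and 6.76 and 8.08 at day 14, and WT neurons 3.54, 3.34, 3.13, 2.52, 2.43 and 2.16 over the same days. In replicate 2, mutant neurons had 1.74, 3.04, 2.31 and 4.60 and WT neurons 1.67, 1.96, 1.34, 5.18 and 4.06 over days 3, 7 and 14. With days pooled, mutant and WT values were apart in replicate 1 and overlapped in replicate 2, a pattern singled out after its values were seen. Within replicate 2 the mutant values were higher at day 3 (1.74 against 1.67) and day 7 (3.04 and 2.31 against 1.96 and 1.34). They overlapped at day 14 (4.60 against 5.18 and 4.06).

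The genotype of the glial partner was tested within neurons of each genotype. In mutant neurons 0 of 34 members and 0% of entries passed with limma, with 0 members and 99 entries below 0.05 unadjusted. In WT neurons 0 of 34 members and 0% of entries passed with limma, with 0 members and 174 entries below 0.05 unadjusted. The limma-voom test on recovered reads called 0 members and 0 entries in both. The members' log2 differences ran from −0.38 to 0.30 in mutant and from −0.43 to 0.37 in WT neurons, with SEs of 0.11 to 0.45. The main fit left deviations shared by same-numbered replicates in its spread. As in glia, these tests could miss a response, and a lack of calls does not show that there was none. With the replicate block 0 members and 0 entries passed in both.

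Which partner held each member was asked of all 43 culture libraries, with pairings and days weighted equally. Of 36 members tested, 30 (83.3%) differed between neuronal and glial libraries, against 78.4% of the 15867 entries, 5 of them higher in neuronal and 25 higher in glial libraries. The members' median log2 difference, neuronal minus glial, was −0.56, against 0.02 over all entries. By role 9 of 11 receptors, 7 of 8 antagonists and 7 of 12 ligands were higher in glial libraries. Both kinds of library held markers of several cell types, and in neuronal libraries those of other cells were higher at day 14, as given above. A side is thus that of a library and not of a cell type, and the part of these cells was not tested. The sides are averages over days and did not hold at every day for every member. Fzd5, counted as higher in glia, ran from 0.330 to 2.09 in neuronal and 2.89 to 6.32 in glial libraries at day 3. At day 14 its ranges were 7.00 to 13.3 in neuronal and 5.78 to 10.3 in glial libraries, with overlap.

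The 5 higher in neuronal libraries were Wnt4 by 1.81 (SE 0.13, limma adjusted p = 4.39e-12), Sfrp2 by 1.64 (SE 0.07), Wnt3 by 0.96 (SE 0.07), Rspo3 by 0.59 (SE 0.19) and Wnt16 by 0.44 (SE 0.06). Sfrp2 did not exceed 0.346 in any glial library and was 1.04 or more in every neuronal library. Wnt3 did not exceed 0.638 in glia. Sfrp2, Wnt3 and Wnt16 met the filter for testing in neuronal but not in glial libraries. Wnt2 and Sfrp5 met it in glial but not in neuronal libraries, so the sides of these members were tied to the filter. Those higher in glia were led by Sfrp4 at −2.07 (SE 0.12), Wnt2, a canonical ligand, at −1.81 (SE 0.20), Dkk3 at −1.67, Fzd6 at −1.58 and Lrp5 at −1.44. Axin2 was higher in glia as well, at −1.07. The difference of Fzd10 (−0.40, limma adjusted p = 0.0272) did not pass with a pseudocount of 0.1 (0.0632) or values as deposited (0.103). It also missed without any 1 of 4 libraries, which were mutant neurons on WT glia at day 3 (0.10) and day 7 replicate 2 (0.138), glia of that day 3 pairing (0.10) and WT neurons on WT glia at day 3 (0.0686). Wnt5a (−0.50) missed without the day 3 replicate 1 libraries (0.0855). Wnt5b, Wnt7a, Fzd3, Fzd9, Rspo1 and Tcf7 did not pass.

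**Figure D5:**
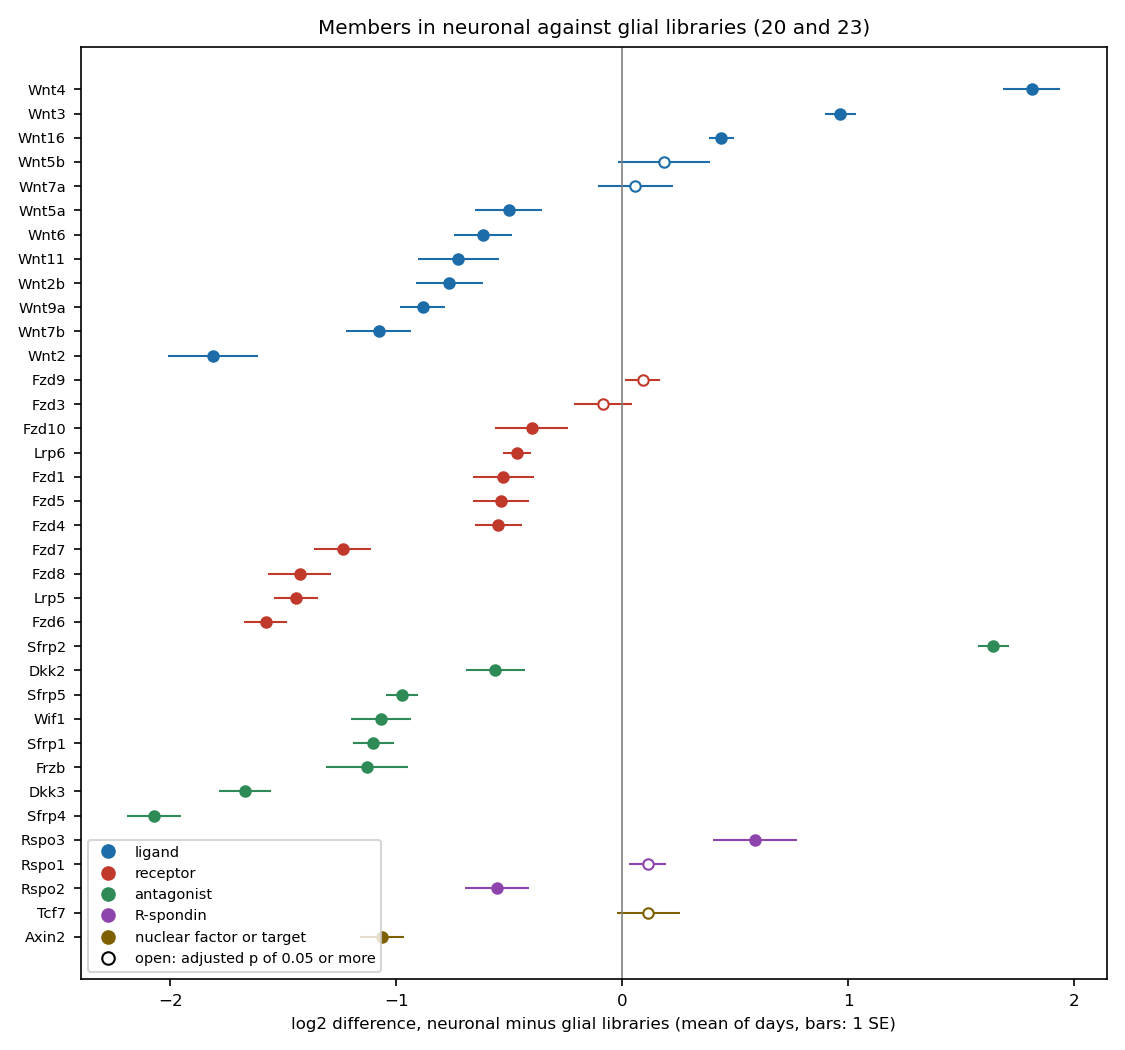
Log2 difference of neuronal minus glial libraries, averaged over days, with 1 SE, for 36 members grouped by role; filled points passed an adjusted p of 0.05 and open points did not. Wnt4 (1.81) and Sfrp2 (1.64) lie farthest to the neuronal side and Sfrp4 (−2.07) and Wnt2 (−1.81) farthest to the glial side.

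The change over time itself differed between the partners. The day 14 against day 3 effect in neuronal libraries minus that in glial libraries passed for 26 of 36 members (72.2%), against 53.5% of entries, with a members' median of 1.04 on the log2 scale. For 22 members it was above 0, among them 9 of 11 receptors, and for Wnt3, Wnt4, Sfrp2 and Rspo2 it was below 0. Fzd10 had the largest such difference, 3.48 (SE 0.40), with a fall in glia and a rise in neurons. Dkk3 and Axin2 also fell in glia and rose in neurons, with differences of 2.59 and 1.65. Wnt4 fell in both, with a difference of −1.37.

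Of the other genes of the pathway in cultures, 2 rose and 8 fell of 63 entries tested in glia at day 14 against day 3, or 15.9% against 12.0% of all entries. Those that fell the farthest were Cthrc1, a secreted modulator, at −1.82 (SE 0.44, limma adjusted p = 0.0147), Nkd1, a negative feedback target, at −1.21 and Apcdd1 at −0.93. Sp5, a transcription factor and canonical target, fell by 0.87. In neuronal libraries 23 rose and 22 fell of 63, or 71.4% against 63.0% of all entries, and the cytoplasmic list had 1 that rose and 11 that fell of 17. Ccnd1 rose by 4.22 (SE 0.27, limma adjusted p = 4.21e-07) and Wls, which carries Wnts to the cell surface, by 2.87, while Celsr3, a cadherin of the polarity branch in neurons, fell by 2.82, and Apc2 by 2.47. Between the partners 28 were higher in neuronal and 26 in glial libraries of 66 entries, or 81.8% against 78.4% of all entries, with 14 of 17 cytoplasmic genes higher in neuronal libraries.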

How the data were processed

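The authors deposited 1 table of 16 spinal cord libraries and 1 of 43 culture libraries, mapped to mm9 with Bowtie per the submitters' processing notes. Versions, the counter and the annotation are not given in the sources used here. The deposited culture values are RPKM, and reads came out whole for 22784 of 22784 entries above 0 (100%, within 0.12 reads); 127 further entries are NA throughout. The deposited spinal cord values are on the RPKM scale but 898 entries fall below 0 in some library, so they were treated as a score, and no member fell below 0. A whole number of reads seems to have been subtracted from part of these entries, and the labels do not state why. Libraries were prepared by a standard Illumina or a Nextera method per the labels, without saying which for each.

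Values were divided by median-of-ratios factors, 1 set for each table, and fitted with limma 3.58.1 (R 4.3.3, trend) on log2(value + 1), for entries at 1 or more in at least 2 libraries, with Benjamini-Hochberg adjustment over all entries and a threshold of 0.05. The cord model had genotype-by-age means and a sex term, and the culture models had pairing-by-day means. The fits were tried on simulated data with independent noise in each library, so effects of replicates deviating together were not covered. Replicates of a group differed by more than counting noise in every pair, with a chi-square per degree of freedom of 13.7 or more. Same-numbered glial replicates deviated together in 15 of 15 pairs of groups (median correlation 0.706, lowest 0.229), which speaks for pairing by number. The main fits held no replicate block, so their SEs and p-values ignore this pairing, and the block was run as an alternative. Alternatives were values as deposited, a pseudocount of 0.1, no filter, each library left out, a replicate block, no sex term, and leaving out the 17-week females or the day 3 replicate 1 libraries. Limma-voom on recovered reads, the fit without 2 day 14 libraries of WT glia and the 2 tests of differences were added after the data were seen. Exon overlap of upstream windows was read from GENCODE M21. Named were Wnt4, members that passed a test, the 3 highest of each role in each set and up to 4 pathway genes a comparison. The members and lists were chosen with earlier results of these data known. Figures used matplotlib 3.10.9.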

Additional observations from a re-analysis of the deposited data

Results flagged for a closer look

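The day 14 against day 3 effect differed between neuronal and glial libraries, by a limma test of the difference itself, for 26 of the 36 members tested. On the log2 scale, neuronal minus glial, the ligands had differences of Wnt5b 2.74, Wnt5a 2.36, Wnt9a 2.30, Wnt11 1.60, Wnt16 0.44, Wnt4 −1.37 and Wnt3 −1.48. The receptors had differences of Fzd10 3.48, Fzd6 2.24, Fzd5 1.84, Fzd1 1.63, Fzd7 1.61, Lrp5 1.54, Fzd8 1.52, Fzd4 1.49 and Lrp6 0.56. The antagonists had differences of Dkk3 2.59, Sfrp4 1.67, Wif1 1.26, Dkk2 1.06, Sfrp1 1.02 and Sfrp2 −1.09. The R-spondins had differences of Rspo1 0.61 and Rspo2 −1.06. The nuclear factors or targets had differences of Axin2 1.65 and Tcf7 1.55. In this comparison 53.5% of all entries passed, and markers of several cell types moved between the days in neuronal libraries, as given beside the changes over time. In spinal cord the mutant effect on Wnt5b at 17 weeks exceeded that at 4 weeks by 0.83 (SE 0.18, limma adjusted p = 0.0233), a call that ended when any 1 of 6 of the 8 libraries was left out. Wnt5b met the filter for this test only through mutant libraries.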

How the results depend on the processing

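Cord calls depended most on the settings, and so did the share of all entries called. At 12 weeks that share was 1.47% without the filter, 1.75% as deposited and 4.48% with voom. At 17 weeks it was 4.51% as deposited. For the mean of ages it was 4.78% without the filter, 7.88% with a pseudocount of 0.1 and 9.10% without the sex term. It was 3.65% there as deposited and 9.75% with voom. The members called are given next. At 12 weeks 0 members passed without the filter and as deposited, 2 with voom, and 0 to 1 with a library left out. At 17 weeks 2 passed as deposited, 3 without the 17-week females, and 3 to 6 with a library left out, the lowest without the mutant female. For the mean of ages 1 passed without the filter, 1 with a pseudocount of 0.1, 5 without the sex term, 0 as deposited, 4 with voom, and 1 to 3 with a library left out. For 17 minus 4 weeks 0 passed with a pseudocount of 0.1 or as deposited, and 0 to 2 with a library left out. In cultures, glia at day 14 against day 3 gave 6 without the day 3 replicate 1 libraries and 9 to 12 with a library left out. Neurons over time gave 25 to 27, neuronal against glial libraries 29 to 30 and the difference in day effects 26 to 28. Lrp6 in neurons over time stood at −0.058 as deposited, the 1 member result that reversed. The Wnt4 difference between glial genotypes ran from −1.09 to −0.95 beside WT neurons and from −0.90 to −0.62 beside mutant neurons with a library left out, and the cause of these changes was not tested.

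With the replicate block, which the glial numbers support, 11 of 32 members passed for glia over time, against 25.3% of entries in place of 12.0%. Same-numbered neuronal replicates deviated together less evenly, with 6 of 7 correlations above 0.1 (median 0.557, lowest 0.0733). There the block gave 26 members over time, against 67.1% of entries. It gave 30 between neuronal and glial libraries, against 82.8%, and 28 for the difference in day effects, against 58.8%. It gave 0 members in each test of genotype or partner. All entries called moved from 19 to 764 for mutant against WT neurons on mutant glia and from 4 to 41 on WT glia. Of all entries, 661 passed at 17 weeks as deposited and 1022 without the 17-week females, in place of 1716, and 643 in glia over time without the day 3 replicate 1 libraries in place of 1755. As deposited, 256 in place of 451 passed at 12 weeks, 535 in place of 1213 for the mean of ages, 330 in place of 736 for 17 minus 4 weeks and 672 in place of 421 in WT cord at 17 against 4 weeks, which gave 260 without the 17-week females. Over all settings 0 to 92 passed at 8 weeks in place of 13, and 0 to 73 at 4 weeks in place of 0. With a library left out 136 to 643 passed at 12 weeks, 851 to 1751 at 17 weeks, 749 to 1787 for the mean of ages, 448 to 881 for 17 minus 4 weeks, 112 to 497 in WT cord and 1188 to 2138 in glia over time. Among neurons 3 to 51 passed on mutant glia and 0 to 55 on WT glia without the block, and in partner tests 0 to 25 in place of 0. The values as deposited moved the median of all entries by over 0.1, to −0.33 in glia over time, −0.43 in neurons over time, −0.25 in WT cord, −0.10 for partners of WT glia and of WT neurons, and 0.17 for glial genotype beside mutant neurons. Among called entries the share that was higher moved as deposited from 74.8% to 90.5% at 17 weeks, 75.6% to 90.8% for the mean of ages, 31.6% to 0.965% in glia over time, 46.5% to 24.7% in neurons over time and 19.5% to 6.85% in WT cord. Depth limits the lowest members, since 5 to 9 entries a set had at most 10 reads in every library.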

Other observations

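Replicate libraries of day 14 glia differed in several members in both genotypes or in 1. Wnt5a had 19.2 to 24.8 in the 4 replicate 1 libraries and 6.99 to 10.6 in the 4 replicate 2 libraries. Wnt2, a ligand known for lung and vessel development, had 7.56 and 7.82 in the replicate 1 and 0.356 and 0.350 in the replicate 2 libraries of WT glia. Rspo3 had 8.61 and 5.46 against 0.579 and 0.585 in the same libraries, while Wnt7a was lower in replicate 1, at 7.43 and 8.32 against 18.4 and 19.1. Wnt5b differed instead in mutant glia, at 9.14 and 6.86 in replicate 1 against 0.988 and 1.01 in replicate 2. These members were chosen after their values were seen.

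Of the 4 pairs of neighbouring ligand genes, Wnt10b and Wnt1 on mm9 chromosome 15 had medians of 0.0657 or less in cord, glia and neurons. Wnt9b and Wnt3 on mm9 chromosome 11 are separated by 24327 bases and had median cord values of 0.0383 and 3.12. Wnt3a and Wnt9a on the same chromosome, separated by 16174 bases, had median glial values of 0 and 10.1. Wnt6 and Wnt10a on chromosome 1, separated by 6195 bases, had medians of 1.20 and 0.0460 in glia but of 0.0990 and 0.479 in cord. In the cord, Tcf7 stood at 2.68 in the WT male of 4 weeks and at 0.196 to 0.715 in the other 15 libraries.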
